A study of Mus musculus with 8 samples.

Results

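The Hox cluster genes on the array were taken as every non-control probe whose gene name is Hoxa, Hoxb, Hoxc or Hoxd followed by a number, dim probes included. They were 44 of the 55663 probes used, and they stood for 39 genes: 14 probes in the Hoxa cluster, 11 in Hoxb, 9 in Hoxc and 10 in Hoxd. The arrays measured RNA pulled down with tagged ribosomes from the hippocampus of 8 adult C57BL/6 mice of at least 3 months, 1 array per mouse. Per their labels, all 8 mice carried Camk2a-Cre and the Ribotag allele Rpl22-tsam1.1Psam/J, a ribosomal protein that gains a haemagglutinin tag in cells with Cre. Camk2a drives Cre in forebrain excitatory neurons, so the deletion and the tag are limited to cells that express it. The 4 mice of the WT group were wild type at Ctcf, per their labels, and the 4 CKO mice were Ctcf loxP/loxP. The series' design text differs here, since it describes its controls as Ctcf loxP/loxP without Cre. Under that text, Cre would differ between the groups as well. Groups and genotypes were taken from the labels of the samples. Each group had 3 males and 1 female.

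Hox genes encode homeodomain transcription factors that give cells their position along the head-to-tail axis of the embryo. They lie in clusters, and their order along the chromosome matches the order of their expression along the axis. Paralogue groups 1 to 4 are used farthest forward, from the hindbrain, and groups 9 to 13 farthest back. The forebrain, hippocampus included, forms ahead of the Hox territory, and silent Hox clusters are typically covered by the histone mark that Polycomb complexes write. CTCF, a DNA-binding zinc finger protein at the anchors of chromosome loops, has sites within the Hox clusters. In other cell types its sites there mark borders between active and Polycomb-covered stretches. The comparison of WT with CKO therefore asks whether Hox transcripts appear, or rise, on neuronal ribosomes when Ctcf is deleted.

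All 44 probes are 60 bases long. Translation of their sequences found stretches that code for the defining Hox protein features in 5 of them, and 4 are shown because they show which family feature a probe reads, in members with signal and without. Each is written 5′ to 3′ as deposited, with the codons of the named feature in capitals. The recognition helix is the part of the homeodomain that contacts the major groove of DNA, and the hexapeptide is a short motif ahead of the homeodomain that binds Pbx cofactors.
Hoxa6, hexapeptide, mm9 chr6:52158194-52158253, minus strand: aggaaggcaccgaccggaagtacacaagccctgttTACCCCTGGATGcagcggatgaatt
Hoxc12, end of the recognition helix, mm9 chr15:102768889-102768948, plus strand: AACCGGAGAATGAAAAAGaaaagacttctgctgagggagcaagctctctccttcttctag
Hoxc11, recognition helix, mm9 chr15:102787022-102787081, plus strand: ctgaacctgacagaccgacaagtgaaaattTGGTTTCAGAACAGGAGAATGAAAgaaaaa
Hoxd10, turn and start of the recognition helix, mm9 chr2:74532280-74532339, plus strand: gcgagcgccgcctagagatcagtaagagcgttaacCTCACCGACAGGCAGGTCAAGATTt
The Hoxa6 probe was well above background on all 8 arrays. The Hoxc12 probe was well above background on 5 arrays, and the Hoxc11 and Hoxd10 probes on 0. The probe not shown, of Hoxb3, reads the recognition helix and was well above background on all 8 arrays. The homeodomain codons are much alike between Hox genes, so RNA of a paralogue could add to the signal of such probes, which was not tested.

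Signal is given as log2 of the processed intensity minus the array's 75th percentile. Over all probes, between 72.2% (CKO 3) and 81.5% (WT 1) were well above background per array, and CKO 3 stood lowest. Slide 1 held WT 1, slide 2 held 2 mice of each group (WT 2, WT 3, CKO 1, CKO 2), and slide 3 held 1 WT mouse (WT 4) and 2 CKO mice (CKO 3, CKO 4). The Ctcf probe fell from -1.37 ± 0.30 (SD, n = 4) in WT to -2.24 ± 0.29 in CKO, to 54.8% of WT, with groups that did not overlap (exact two-sided permutation p = 0.0286, the smallest that 4 against 4 allows). Its adjusted p in limma over all probes was 0.784. All 8 markers of excitatory forebrain neurons were well above background on all 8 arrays. Of 7 measured markers of hindbrain and spinal cord neurons, 3 were well above background on all 8 arrays and 2 on 0, En1 among them. Per mouse the median signal of those 7 markers was -4.57 to -3.21 in WT and -4.73 to -3.79 in CKO, and their part in the Hox signal was not tested.

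**Figure D1:**
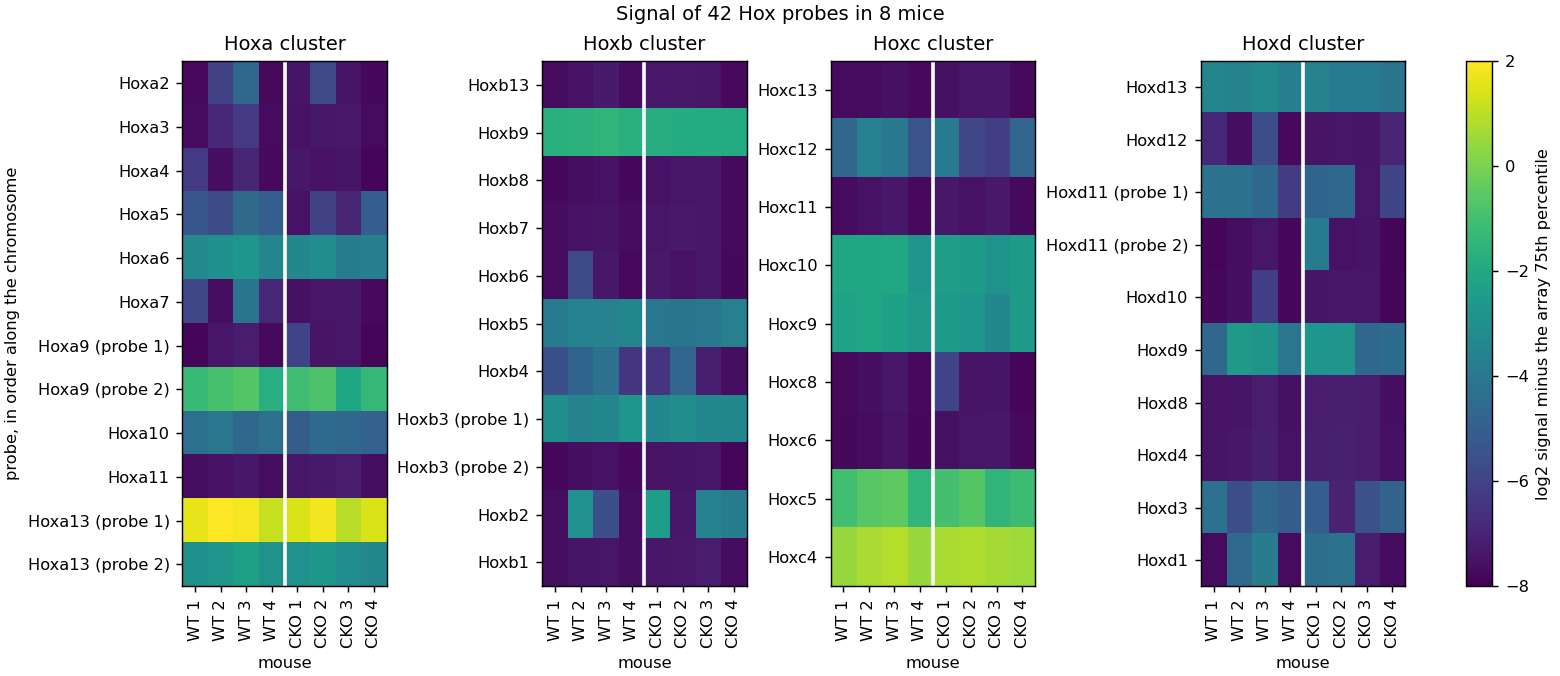
Heat map of the log2 signal minus the array's 75th percentile for 42 of the 44 Hox probes (rows, in chromosome order within each cluster) in the 8 mice (columns, WT left of the white line and CKO right of it). Within a row most probes kept a like colour in both groups. Rows with mixed colours include probes detected on 1 to 7 arrays, and also Hoxd9, on all 8, and Hoxd12, on 0.

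Most Hox probes gave little or no signal in the WT mice, and the same held in CKO. Exceptions were 1 probe of Hoxa13, with a mean of 1.66 in WT and 1.40 in CKO, and Hoxc4, at 0.64 and 0.69. Both lay above the array's 75th percentile in every mouse. Of the 44 probes, 14 were well above background on all 8 arrays, 10 on 1 to 7 arrays and 20 on 0, while 69.6% of all probes were on all 8 and 14% on 0. WT arrays detected 18, 19, 22 and 16 Hox probes, and CKO arrays 19, 17, 15 and 18. The means were 18.75 ± 2.5 and 17.25 ± 1.71 probes per array (SD, n = 4), and the ranges overlapped. Over the 4 arrays of each group this came to 75 of 176 possible detections in WT (42.6%) and 69 of 176 in CKO (39.2%). Over all probes the shares were 80.2% in WT and 76.8% in CKO. In bulk RNA, fewer cells that express a gene cannot be told apart from less RNA per cell.

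Other silent or tissue-restricted genes and the array's blanks give the scale for these shares. Olfactory receptor probes, 1169 in number, were detected at 43.5% to 52.4% per WT array and 33.4% to 46.5% per CKO array, with 30.2% on all 8 arrays and 39.5% on 0. The 101 probes of other homeobox genes were on all 8 arrays in 51.5% of cases. Negative control spots, which match no transcript, were well above background at 1.30% to 8.44% in WT and 2.60% to 7.47% in CKO. Against the 99th percentile of those negative controls, 7 Hox probes stayed above on all 8 arrays: Hoxa9, Hoxa13, Hoxb9, Hoxc4, Hoxc5, Hoxc9 and Hoxc10. Among all probes 56.0% met that mark, and among olfactory receptor probes 17.1%.

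**Figure D2:**
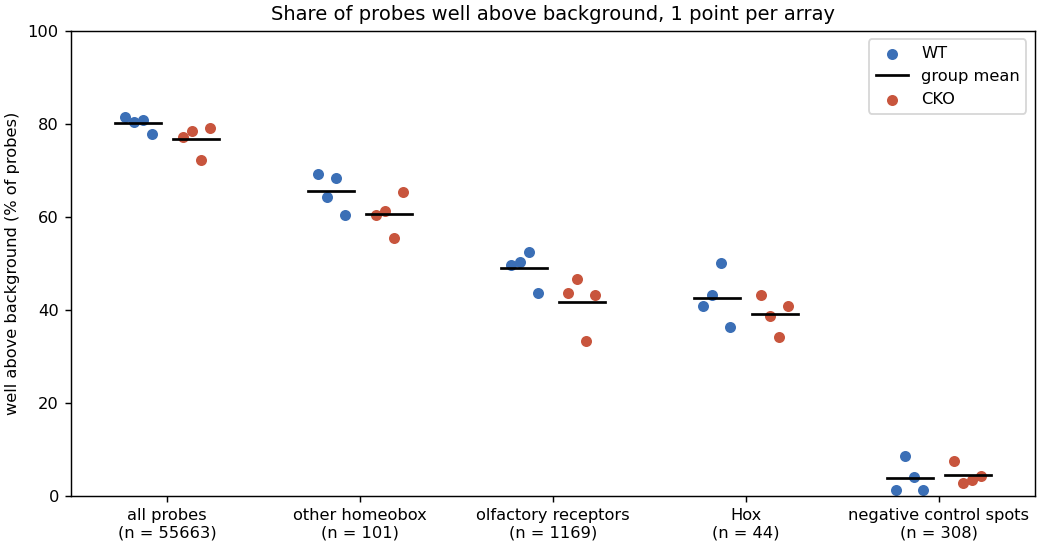
Share of probes well above background (%) on each array for 5 sets of probes, with 1 point per array, WT blue, CKO red and a black bar at the mean of 4 arrays. Hox probes lie at 36.4% to 50% in WT and 34.1% to 43.2% in CKO, near the olfactory receptors and far above the negative control spots.

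Posterior members were detected more often than anterior ones in both genotypes, which is a count and was not tested. Posterior probes were detected in 55.3% of their possible detections in WT and 53.9% in CKO, and anterior probes in 30.4% and 26.8% of theirs. Posterior groups 9 to 13 had 9 of 19 probes on all 8 arrays, central groups 5 to 8 had 3 of 11, and anterior groups 1 to 4 had 2 of 14. In the Hoxa cluster 5 of 14 probes were on all 8 arrays, in Hoxb 3 of 11, in Hoxc 4 of 9 and in Hoxd 2 of 10. The anterior members on all 8 arrays were Hoxb3 and Hoxc4, the central ones Hoxa6, Hoxb5 and Hoxc5, and the posterior ones Hoxa9, Hoxa10, both probes of Hoxa13, Hoxb9, Hoxc9, Hoxc10, Hoxd9 and Hoxd13. The genes with no probe well above background on any array included Hoxa3, Hoxa4, Hoxa11, Hoxb1, Hoxb6, Hoxb7, Hoxb8, Hoxb13, Hoxc6, Hoxc8, Hoxc11, Hoxc13, Hoxd4, Hoxd8, Hoxd10 and Hoxd12.

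Base composition moved with detection over all probes, and less evenly among Hox probes. The Hox probes on all 8 arrays had a median G+C content of 45%, those on 0 arrays 38.3%, and all 44 Hox probes 39.2%, against 43.3% over all probes. Over all probes the share on all 8 arrays was 50.3% at a G+C content up to 35% and 93.0% above 50%. At up to 35%, 2 of 11 Hox probes were on all 8 arrays, between 40% and 45% 8 of 15 were, and above 50% 1 of 4 was. Its part in the order along the clusters was not tested. Around the starts of 22 Hox genes in RefSeq (GRCm38.p6, 24 windows of 300 bases), the median count of the dinucleotide CG was 14.5, against 7 in 32851 windows of all genes.

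**Figure D3:**
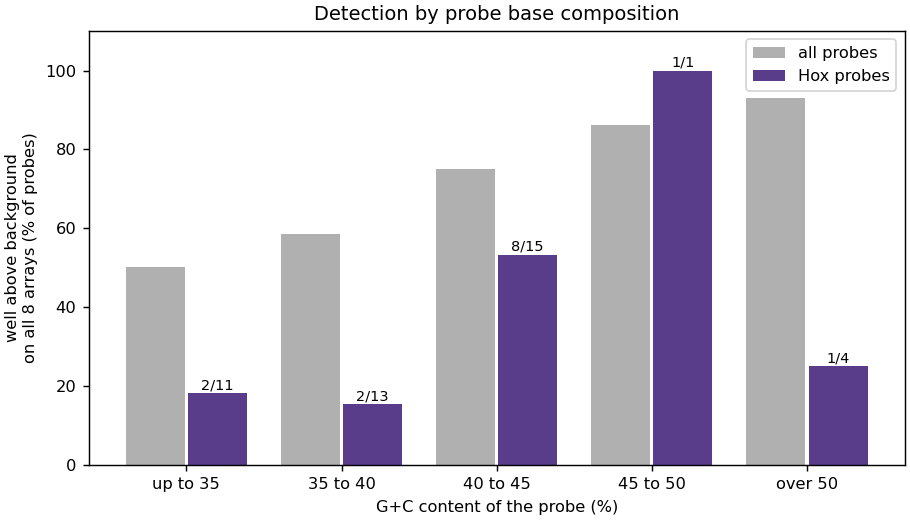
Share of probes well above background on all 8 arrays (%) by G+C content of the probe (%), for all probes (grey) and Hox probes (purple, with counts above the bars). The grey bars rise steadily with G+C content, while the Hox bars, each from 15 probes or fewer, do not, and 1 of the 4 Hox probes above 50% was on all 8 arrays.

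No Hox probe was gained or lost in CKO by a margin of 3 arrays. Well above background on at least 3 more CKO than WT arrays were 0 of 44 Hox probes and 0.0539% of all probes. On at least 3 more WT arrays were 0 of 44 and 0.773%. A probe on all 8 arrays can be neither gained nor lost. Such were 14 of the 44 Hox probes (31.8%) and 69.6% of all probes, so the background shares here are not like for like. With a margin of 2 arrays, Hoxb2 was gained (background 0.277%) and Hoxa5 and Hoxd3 were lost (background 3.5%). Any surplus in CKO was seen for 2 probes, Hoxb2 and 1 probe of Hoxd11 (background 1.95%), and any surplus in WT for 7 (background 11.5%), while 35 had equal counts. Leaving out CKO 4 made 2 probes lost at a margin of 3. Fisher's exact test per probe gave Hox p-values of 0.486 and above. At an unadjusted p under 0.05 in that test were 44 of all probes and 0 Hox probes. With 4 against 4 arrays its smallest possible p is 0.0286, which 44 of the 55663 probes had. So few probes at that floor cannot pass Benjamini-Hochberg adjustment. That 0 of all probes passed it therefore says nothing about gain or loss.

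Hoxb2, a hindbrain gene of paralogue group 2, had the largest difference toward CKO among the 44 probes. Its signal was -7.63, -2.93, -5.54 and -7.63 in WT 1 to 4 and -2.44, -7.35, -3.55 and -3.81 in CKO 1 to 4. Both groups held mice at the floor and mice with clear signal, and the groups overlapped. The difference was 1.65 (SE 1.32) on the log2 scale, with a limma 95% interval of -1.37 to 4.66 and an adjusted p of 0.784. Within slide 2, WT 2 and WT 3 against CKO 1 and CKO 2, it was -0.66, and within slide 3, WT 4 against CKO 3 and CKO 4, 3.95. It was 2.80 in males alone, 2.65 without WT 2, 2.67 without CKO 2, 1.08 without WT 1 or WT 4, 1.03 without CKO 1, 0.63 with normexp and 0.72 with the authors' values. Without WT 2 the probe was detected on 0 WT and 3 CKO arrays.

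Detection of some dim members differed between slides. Hoxa5 and Hoxd3 were on 1 of 4 arrays of slide 2 and 3 of 4 others, and Hoxb2 on 2 and 2. Hoxd1, of paralogue group 1, was well above background on 4 of 4 arrays of slide 2 and on 0 of 4 others, which is 2 WT and 2 CKO mice. It is named because of this pattern, which was chosen after its values were seen. Its signal was -4.60 and -3.80 in WT 2 and WT 3 and -4.40 and -4.26 in CKO 1 and CKO 2, and from -7.73 to -7.24 in the other mice. One probe of Hoxd11, a posterior gene of limb and trunk patterning, was well above background on 4 of 4 arrays of slide 2 and 1 of 4 others. The second Hoxd11 probe was at -3.93 in CKO 1 and from -7.85 to -7.41 in the other 7 mice, so its difference of 0.97 (SE 0.79) rested on that mouse and was 0.057 without it. The part of the slide in the Hoxd1 and Hoxd11 values was not tested beyond these counts.

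Across the fit of all probes, 0 of 44 Hox probes passed an adjusted p of 0.05 in limma, where 3 of all probes did (0.00539%), all of them lower in CKO, a count that ran from 0 to 12 with 1 array left out. Hox adjusted p-values lay between 0.784 and 0.982. At an unadjusted p under 0.05, 0 Hox probes were higher (background 1.95%) and 3 were lower, Hoxa5, Hoxa10 and Hoxc9 (6.82% of 44, background 3.25%). Without CKO 3 the count of lower Hox probes was 0, and without WT 1 or WT 3 it was 1. In all, 26 of 44 Hox probes had a difference below 0 (59.1%, background 55.7%), none of which passed the adjusted threshold. Groups that did not overlap were found for 0 Hox probes higher (background 1.52%) and 1 lower, Hoxb9 (background 1.49%).

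The 3 Hox probes with the smallest p-values come from the Hoxa and Hoxc clusters. Hoxa10, a gene of hindlimb and reproductive tract patterning, was at -4.35, -4.06, -4.61 and -4.29 in WT 1 to 4 and -5.03, -4.49, -4.67 and -4.84 in CKO 1 to 4. CKO 2 lay above WT 3, so the groups overlapped by this pair. The difference was -0.43 (SE 0.18), a ratio of 0.743 in CKO over WT, with an unadjusted p of 0.0449 and an adjusted p of 0.784 in limma. With quantile normalization the difference was 0.00041.

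Hoxc9, which sets thoracic motor neuron identity in the spinal cord, was at -2.24, -2.09, -2.29 and -2.59 in WT and -2.56, -2.75, -3.32 and -2.56 in CKO. WT 4 lay below CKO 1 and CKO 4, and CKO 3 was lowest. The difference was -0.49 (SE 0.21; limma adjusted p = 0.784). Hoxa5, which acts in neck, lung and brainstem development, was at -5.34, -5.73, -4.54 and -5.03 in WT and -7.51, -6.02, -6.96 and -5.02 in CKO. It was well above background on 3 WT arrays and 1 CKO array, and CKO 4 was among the higher mice. The difference was -1.22 (SE 0.52), with an adjusted p of 0.784 in limma. It was -0.45 with quantile normalization, -0.012 with normexp and -0.69 with the authors' values.

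Hoxb9 was the 1 Hox probe whose groups did not overlap. WT mice were at -1.65, -1.56, -1.47 and -1.67, and CKO mice at -1.75, -1.80, -1.81 and -1.86. Every CKO mouse was below every WT mouse, by a small step of -0.22 (SE 0.13; limma adjusted p = 0.784). The step was -0.073 with median scaling, -0.11 with quantile normalization or normexp and -0.065 with the authors' values. Hoxb5 (-0.35), Hoxd13 (-0.34), Hoxc10 (-0.34), Hoxa6 (-0.36) and the second probe of Hoxa13 (-0.29) had differences of like size, each with overlapping groups. Hoxa7 was on 1 WT array and 0 CKO arrays, and Hoxc8, Hoxc13 and Hoxb8, which the rule for named probes also takes, were on 0 arrays and have no measured difference. For Hoxa2, Hoxa7 and the second Hoxd11 probe, each not well above background in 1 group, the bound was under 1 and no fold is given.

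**Figure D4:**
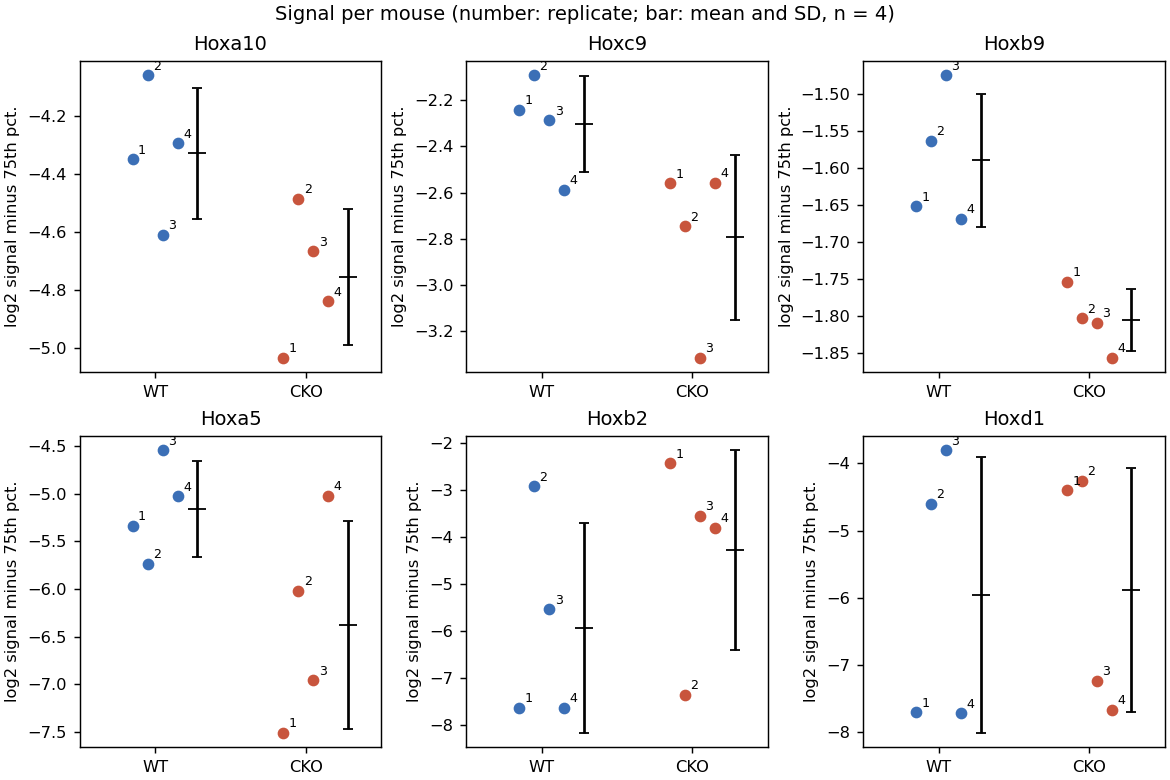
Log2 signal minus the array's 75th percentile in each mouse for Hoxa10, Hoxc9, Hoxb9, Hoxa5, Hoxb2 and Hoxd1, with WT blue, CKO red, replicate numbers beside the points and bars for the mean and SD of 4 mice. The Hoxb9 groups are separate, at -1.67 to -1.47 and -1.86 to -1.75, while Hoxb2 and Hoxd1 split within both groups.

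Among the 14 Hox probes on all 8 arrays, 13 had a difference below 0 and Hoxc4 had 0.046 above 0, with a median of -0.27. Over all probes on all 8 arrays the median was -0.057 and 56.9% were below 0. The Hox count below 0 was 10 with quantile normalization, where 49.3% of all probes on all 8 arrays were below 0, and 11 with median scaling (39.1%). It was 12 with normexp (49.5%) and with the authors' values (43.3%), 11 without CKO 3 (52.9%) and 10 within slide 3 (50.3%). Among all probes on all 8 arrays with a mean signal below -2, the median was -0.21 and 76.8% were below 0, and there 9 of 9 Hox probes were below 0. At -2 or above the median over all probes was 0.017 with 47.9% below 0, and 4 of 5 Hox probes were below 0. Olfactory receptor probes on all 8 arrays had a median of -0.29 with 90.7% below 0, and other homeobox probes -0.20 with 88.5%.

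The intervals bound what the 8 mice could show. For the 14 probes the upper 95% limits in limma reached at most 1.32, for Hoxd9, which is a 2.5-fold rise, and the lower limits went down to -1.52, for the same gene. Of these 14 intervals, the 2 wholly below 0 were those of Hoxa10 and Hoxc9. Probes on 1 to 7 arrays had upper limits as high as 4.66 (Hoxb2), 2.79 (second Hoxd11 probe) and 2.75 (Hoxd1). The 2.5-fold limit therefore does not cover them. The 11 Hox probes at a surrogate value on all 8 arrays had a median of 0.129, and 11 of 11 were above 0. So were 99.9% of the 5306 probes of all genes at a surrogate on all 8 arrays, with a median of 0.128. The surrogate is a floor that the scanner software sets, and values at it have no order.

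**Figure D5:**
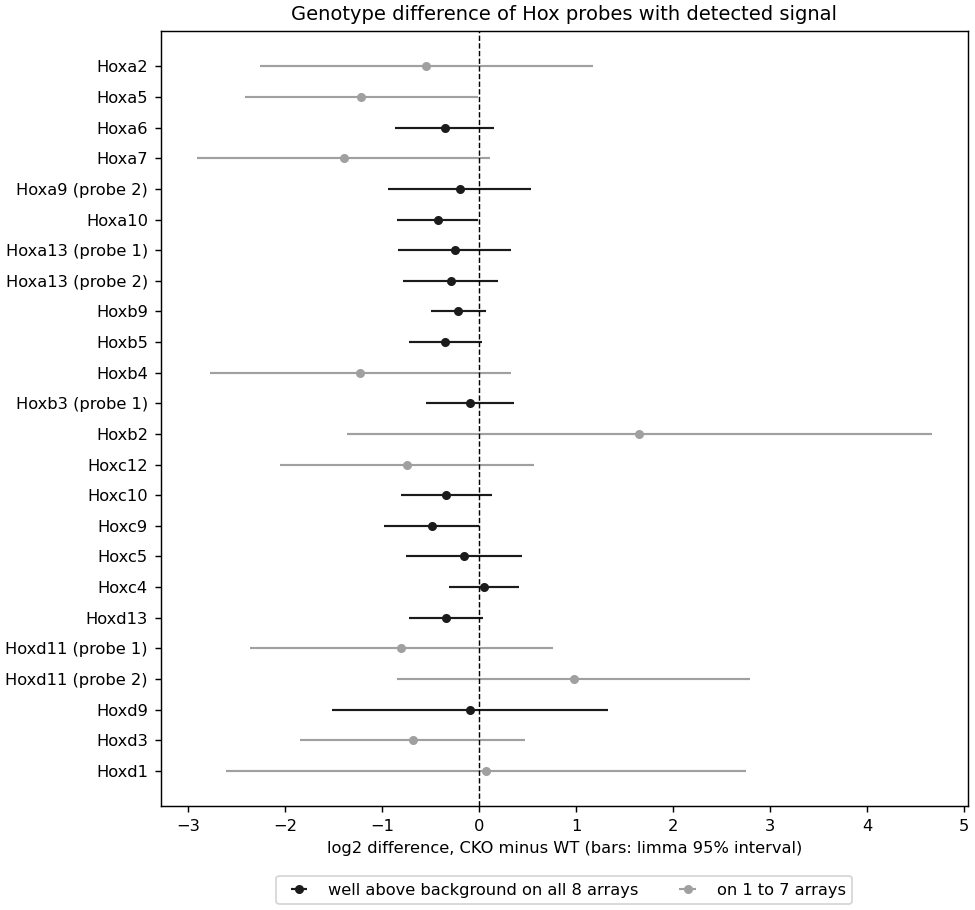
Log2 difference, CKO minus WT, with the limma 95% interval for the 24 Hox probes well above background on at least 1 array, in chromosome order within each cluster (black: all 8 arrays, grey: 1 to 7 arrays). The black points lie between -0.49 and 0.046, and the widest grey interval is that of Hoxb2, from -1.37 to 4.66.

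Probes of the same gene did not always report alike. Hoxa9 and Hoxb3 each had 1 probe on all 8 arrays and 1 on 0, Hoxd11 had probes on 5 and on 1, and both Hoxa13 probes were on all 8. The 2 Hoxa13 probes differed by -0.26 (SE 0.25) and -0.29 (SE 0.21) between genotypes. Hoxa13, used in the digits and the hindgut, thus gave like differences from both probes, but not like levels. Their WT means were 1.66 and -2.74.

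Non-coding and antisense transcripts share the clusters. Between the outermost Hox probes lay 38 other probes, of which 17 were on all 8 arrays (background 69.6%) and 9 on 0 (background 14%). In limma 0 passed the threshold. At an unadjusted p under 0.05, 1 was higher (background 1.95%) and 1 lower (background 3.25%). Both carry the name of the same Hoxb cluster transcript and differed in opposite directions. The probe at chr11:96175838-96175897 (mm9) had -5.08, -3.68, -4.42 and -4.79 in WT and -3.15, -3.97, -3.08 and -3.04 in CKO, and differed by 1.18 (SE 0.34). The probe at chr11:96175777-96175836, on 4 WT and 2 CKO arrays, differed by -0.98 (SE 0.31), and the other probe of that name was on 0 arrays. Haglr, an antisense RNA of the Hoxd cluster, differed by -0.053 (SE 0.28).

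Of 5 probes named HOTAIR, the antisense RNA of the Hoxc cluster, 2 were on all 8 arrays, with differences of -0.70 (SE 0.33) and -0.34 (SE 0.26). Another was on 4 WT and 2 CKO arrays and 2 were on 0. Their adjusted p-values in limma were 0.784 or above. The probes named Evx1 and Evx2, homeobox genes at the ends of the Hoxa and Hoxd clusters, were on 0 arrays. A probe with no gene symbol beside the Evx2 probe, at chr2:74493567-74493626, was on all 8 arrays, with a difference of 0.15 (SE 0.19).

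The genes that work with the Hox clusters or keep them silent gave 0 probes past the threshold in limma. Of 9 TALE cofactors, which bind DNA with Hox proteins, 8 were on all 8 arrays and the median difference was -0.0036, with Pknox2 at -0.11 (SE 0.15). Of 29 Polycomb genes 26 were on all 8 arrays, 19 had a difference above 0 and the median was 0.16, with Eed at 0.47. The 14 measured trithorax genes and demethylases, which oppose Polycomb, had a median of 0.045, with Wdr5 at 0.35 and Psip1 at 0.33. The 15 retinoic acid genes, which set Hox borders in the embryo, had a median of 0.0097, with Rxrb at 0.46 and Aldh1a2 at -1.05. The 10 ParaHox and cluster-associated genes had a median of -0.059, with Cdx4 at -0.77 and Gsx2 at -0.67, and the 76 other homeobox genes -0.18. Of these 76, 6 had an unadjusted p under 0.05, each with a difference below 0 (background 3.25%), Irx1 and Pitx3 among them. Over all probes the median difference was -0.060 and 44.3% were above 0.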

How the data were processed

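Per the labels' protocols, RNA from haemagglutinin pull-downs was amplified (whole transcriptome kit) and given a Cy5 label. Per the file headers, the deposited intensity of each spot was made by Agilent Feature Extraction, spatially and multiplicatively detrended, with mm9 probe coordinates. The flag for well above background is the scanner software's own call, per the file headers. The authors' normalization of their deposited value table is not given in the sources used here.

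Outlier spots were left out, spots of a probe averaged, and the processed signals put on a log2 scale relative to the 75th percentile of their array. The 55663 probes were fitted without a filter on dim probes, in R 4.3.3 using the two-sided moderated test of limma 3.58.1, Benjamini-Hochberg adjustment and a threshold of 0.05. The mice are biological replicates, per the labels, and 8 arrays limit the precision. The fit was checked on simulated data. The members and lists were chosen with earlier results of these data known. The rule for values in all mice took Hox probes gained or lost by 3 arrays, the 5 with the smallest p in each direction and up to 8 on all 8 arrays. In each list, the rule named the 2 smallest p-values among probes on at least 4 arrays. Probe coordinates stand for the probes, and their place in exons was not analysed here. Alternatives covered scaling, background correction, the authors' values, filters, prior variance, array weights, slide, sex, replicate number and each array left out. Some items that the rules take are not reported here.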

Additional observations from a re-analysis of the deposited data

Results flagged for a closer look

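In the checks of single mice, 32 groups of 4 values were examined, and chance alone marks about 1 group in 20. The second Hoxd11 probe in the CKO group had CKO 1 at -3.93, far from the other 3 mice. Hoxc10 in the WT group had WT 4 at -2.77, far below the other 3 mice, which lay between -2.12 and -2.06.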

How the results depend on the processing

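Under all 24 alternatives of the fit, 0 Hox probes passed the threshold. All probes past it numbered 3, against 1 with quantile normalization or males alone, 0 with the authors' values, the filter of 4 arrays, the trended prior, slide as a fixed block, slide 2 alone, sex as a covariate or the replicate block, 5 with slide as a random block, 10 with array weights, and 0 to 12 with 1 array left out (12 without WT 4). Hox probes lower at an unadjusted p under 0.05 numbered 3, against 0 with median scaling, normexp, the authors' values, slide 3 alone or the replicate block, 1 with quantile normalization, 6 with array weights, and 0 to 3 with 1 array left out. Higher ones numbered 0, against 1 with normexp or array weights, and 0 to 1 with 1 array left out (1 without CKO 2). Hoxa10 was 0.00041 with quantile normalization, Hoxb2 -0.66 in slide 2 and Hoxc10 0.053 in slide 3, and the cause was not tested. Hoxb8 was -0.083 with normexp, but it was at a surrogate value on all 8 arrays and has no measured difference. Median scaling moved the median of all probes from -0.060 to 0.084. Hox detections per array were 24.5 in WT and 20.75 in CKO with the positive and significant call, and 14 and 10.75 above the 99th percentile of negative controls. The first of these gave 1 probe lost, and with 1 array left out 0 to 1 were gained (1 without WT 2) and 0 to 2 lost (2 without CKO 4). A margin of 2 arrays gave 1 gained and 2 lost. The replicate numbers do not pair the mice (correlations of deviations -0.30, 0.19, -0.27 and 0.073). Slide 2 alone has 2 arrays per group and gives no count at a margin of 3.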

Other observations

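Within 500 kb on either side of the clusters lay 88 probes of named genes, of which 67 were on all 8 arrays (background 69.6%). In limma 0 passed the threshold, with 3 higher (background 1.95%) and 2 lower (background 3.25%) in CKO at an unadjusted p under 0.05. By a margin of 3 arrays 1 probe was gained (background 0.0539%) and 1 lost (background 0.773%), both named after their values were seen. Amhr2, the receptor of anti-Müllerian hormone, was gained, on 0 WT and 3 CKO arrays, at -7.71, -7.08, -7.03 and -7.74 in WT and -3.11, -4.84, -7.35 and -5.40 in CKO, 474 kb below the Hoxc cluster. One probe of Ttll6, a tubulin-modifying enzyme beside the Hoxb cluster, was lost, on 3 WT and 0 CKO arrays, and its other probe was on all 8 and differed by 0.018 (SE 0.38). Hibadh, an enzyme of valine breakdown 287 kb above the Hoxa cluster, was at 0.84, 0.96, 0.89 and 1.38 in WT and 1.61, 1.44, 1.87 and 1.60 in CKO. Every CKO mouse was above every WT mouse, with a difference of 0.61 (SE 0.17; limma adjusted p = 0.784). Hottip, an RNA beside Hoxa13, was on 4 WT and 3 CKO arrays and differed by 0.012 (SE 0.33). Beside the Hoxb cluster Gm11529 differed by 0.57 (SE 0.23) and Gm9796 by -0.32 (SE 0.14).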
